A study of Mus musculus with 15 samples.

Results

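The windows described here are stretches of 1 kb of the mouse autosomes that were highly methylated in control kidneys and lost little methylation in kidneys with a Six2Cre deletion of Dnmt1. A window was taken when at least 3 CpG positions had 10 or more calls in each of the 6 newborn bisulfite libraries, the control mean was 80% or more, and the KO mean was at least 0.90 of the control mean. Of 50993 windows measured, 20636 reached the control mean, and 597 of these met the ratio. They are called retained windows below, and the other 20039 are called the other methylated windows. Methylation in the control and KO libraries therefore chose the windows, and their difference between these groups is a description with no test.

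Dnmt1 is the maintenance methyltransferase: after DNA replication it copies CpG methylation from the parental strand onto the new strand, guided by Uhrf1. Without it, methylation is diluted as cells divide. Imprinted regions and some retrotransposons are textbook cases of sequences whose methylation is protected by Zfp57, Zfp445, Trim28 and Setdb1, and the promoters of many germline genes are kept silent in the body by methylation.

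Reduced representation bisulfite sequencing (RRBS), which reads cytosine methylation in fragments cut at CpG-containing restriction sites, covered 3 groups of 3 C57BL/6 mouse kidney libraries. The controls were Dnmt1 f/f at P0, the day of birth, and the KO libraries were Six2Cre Dnmt1 f/f at P0, so both newborn groups carry the floxed allele and only the KO carries Cre. The third group was wild type at 6 weeks, and it differs from the controls in genotype as well as in age. RNA was sequenced from 3 control and 3 KO libraries of the same newborn genotypes. Six2Cre acts in nephron progenitors and their descendants, and stroma, vessels, blood cells and the ureteric tree keep Dnmt1. The source label names Six2+ cells, whereas the extraction protocol names the whole organ, and in the control RNA all markers listed for stroma, endothelium, leukocytes and ureteric epithelium were at 1 CPM or more (CPM are counts scaled to the size of the library) in every library. In such bulk DNA, fewer recombined cells and less loss per cell cannot be told apart.

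RRBS calls per library ranged from 18424875 in KO 3 to 88765177 in control 2, and gene counts per RNA library from 26773937 to 34102567. Dnmt1 itself had 180, 156 and 188 CPM in controls and 110, 111 and 93.7 CPM in KO (log2 fold change -0.74, SE 0.12, edgeR adjusted p 0.00577). The groups did not overlap, and a count per gene does not show which exons were read. Over the 18132 genes that entered the edgeR test, 6.36% passed as higher in KO and 8.23% as lower (adjusted p threshold 0.05). In the KO RNA, 6 of 6 podocyte, 6 of 6 proximal tubule and 4 of 4 thick limb and distal tubule markers were lower, and no marker on these lists was higher. The summed proximal tubule level was 1290 to 3666 CPM in controls and 290 to 339 CPM in KO, and of the 8 nephron progenitor markers 2 were higher and 2 lower. Of the endothelial markers 4 of 5 were lower, of the ureteric, stromal and leukocyte markers 2 of 7, 2 of 6 and 2 of 5 were higher, and of the 4 red cell markers none passed the test (edgeR). The part of this shift in the methylation values was not tested.

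In 13 genes a retained window overlapped the promoter sequence of RefSeq, taken here as the 250 bases before to 50 bases after the annotated start. In 6 of the 13, Spp2, Gm33752, Gm33326, Krt90, Dazl and Plce1, the measured positions of the window lay outside that sequence. The sequences below belong to the promoters on which the results turn: Tuba3b, a germline-type alpha-tubulin whose RNA rose in KO; Gm31278, a noncoding locus whose window was lower in adults; and Oxgr1, a receptor for 2-oxoglutarate whose RNA fell in KO. Capitals mark the CG positions measured in all 6 newborn libraries. For Dazl, an RNA-binding protein of germ cells, none of the 28 CG pairs of the promoter sequence was measured, and capitals mark every CG. All are from GRCm38, read 5′ to 3′ on the strand of the gene.
Tuba3b, chr6:145615713-145616012, plus strand: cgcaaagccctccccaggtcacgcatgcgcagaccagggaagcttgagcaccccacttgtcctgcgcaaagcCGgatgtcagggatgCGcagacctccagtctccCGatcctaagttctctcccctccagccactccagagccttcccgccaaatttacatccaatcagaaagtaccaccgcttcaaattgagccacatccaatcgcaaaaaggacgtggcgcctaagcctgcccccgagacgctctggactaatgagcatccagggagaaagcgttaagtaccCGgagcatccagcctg
Gm31278, chr8:116271399-116271698, minus strand: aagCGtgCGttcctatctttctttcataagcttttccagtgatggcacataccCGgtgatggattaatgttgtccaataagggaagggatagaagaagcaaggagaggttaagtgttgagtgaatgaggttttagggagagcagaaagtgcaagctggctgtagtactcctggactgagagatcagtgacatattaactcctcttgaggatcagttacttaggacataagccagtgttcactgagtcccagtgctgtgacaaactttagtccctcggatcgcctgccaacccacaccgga
Oxgr1, chr14:120042386-120042685, minus strand: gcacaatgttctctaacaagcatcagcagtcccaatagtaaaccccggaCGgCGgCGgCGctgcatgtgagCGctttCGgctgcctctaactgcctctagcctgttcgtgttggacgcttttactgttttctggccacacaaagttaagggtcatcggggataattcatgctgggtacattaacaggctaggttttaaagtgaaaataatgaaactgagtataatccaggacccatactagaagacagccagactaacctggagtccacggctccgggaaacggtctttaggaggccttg
Dazl, chr17:50293571-50293870, minus strand: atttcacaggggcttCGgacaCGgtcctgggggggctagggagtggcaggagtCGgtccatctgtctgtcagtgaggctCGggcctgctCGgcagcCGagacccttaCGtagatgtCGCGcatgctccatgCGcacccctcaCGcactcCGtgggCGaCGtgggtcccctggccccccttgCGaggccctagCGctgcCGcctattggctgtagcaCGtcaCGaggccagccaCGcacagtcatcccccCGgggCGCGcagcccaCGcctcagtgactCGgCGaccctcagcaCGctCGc

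The Tuba3b sequence holds 16 CG pairs, of which 4 were measured, and the median over 31396 autosomal promoter sequences is 7 CG. It also holds TTCCCGC, a core of E2F sites, which was searched on both strands and is present in 4.63% of those promoter sequences. The same letters were found in the promoter sequence of Gm52531, another gene with a retained window at its start. CACGTG, the E-box read by Myc, Max and Usf factors, was in 7.14% of the sequences and in none of the 13. The 2 motifs do not overlap, and a match of letters is not a binding site.

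Over the 597 retained windows, the 3 controls had mean methylation of 90.8%, 92.0% and 91.0%, and KO 1, KO 2 and KO 3 had 84.0%, 81.3% and 89.9%. The group means were 91.3% ± 0.672 and 85.1% ± 4.40 (SD, n = 3 each). The other methylated windows stood at 90.4% ± 0.0742 in controls and at 68.1%, 62.9% and 68.2% in the KO libraries. KO 3, the shallowest library, was thus near control level in the retained windows but close to KO 1 in the rest. Retained windows had lower means in KO than in control as well, and only 20 of them had a KO mean at or above the control mean.

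The ratio of KO to control formed 1 continuous distribution among the 20636 methylated windows. Its median was 0.741, with the 5th percentile at 0.594 and the 95th at 0.879, and the retained windows were its upper end, with a median of 0.924 and a maximum of 1.05. The windows nearest the limit had ratios of 0.900007, 0.900043 and 0.900049 inside and 0.899928, 0.899858 and 0.899768 outside. The window at 0.900007, chr7:24769001-24770000, read 79.5%, 91.6% and 92.7% in controls and 100%, 68.0% and 69.4% in KO, so 1 library held its mean up. The window at 0.899928, chr14:22071001-22072000, read 82.6%, 90.4% and 69.8% in controls and 72.7%, 72.2% and 73.5% in KO. Those KO values lie closer together than in the window just inside.

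**Figure D1:**
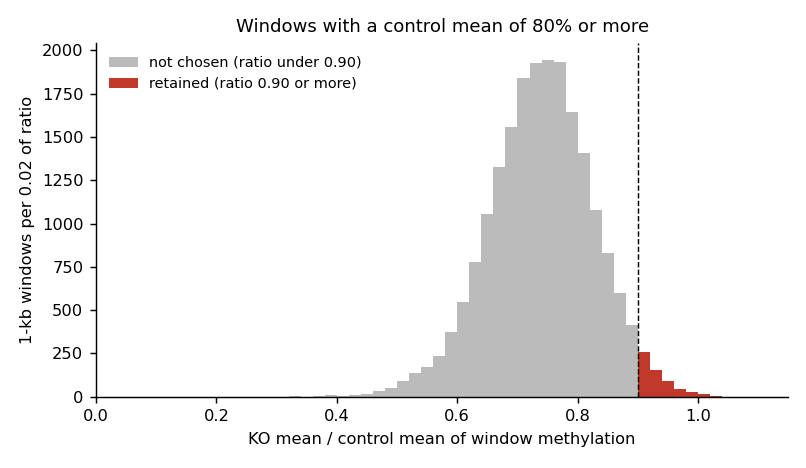
Number of 1-kb windows (y axis) by the ratio of KO mean to control mean (x axis) among the 20636 windows with a control mean of 80% or more; the dashed line is the limit of 0.90. The 597 retained windows, in red, are the upper end of 1 distribution with a median of 0.741.

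The 3 KO libraries did not contribute alike. All 3 were at 0.90 or more of the control mean in 94 retained windows, 2 of them in 368 and only 1 in 135. KO 3 reached that level in 509 windows (85.3%), KO 1 in 367 and KO 2 in 277, and KO 3 was the highest of the 3 in 362 windows (60.6%). In the other methylated windows KO 3 reached it in 15.8%, KO 1 in 6.91% and KO 2 in 2.88%. Without KO 2 the rule gave 1506 windows, without KO 1 986 and without KO 3 563.

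Depth moved with the choice. The smallest number of calls over the 6 newborn libraries had a median of 58 in retained windows and 77 in the other methylated windows. The share of methylated windows that were retained was 4.89% at 30 to 49 calls, 3.34% at 50 to 74, 2.25% at 75 to 99, 1.75% from 100 to under 200 and 0.820% at 200 or more, while the median ratio stayed between 0.736 and 0.749. The SD of the ratio over windows fell from 0.105 in the shallowest class to 0.0642 in the deepest. Retained windows were thus more frequent where fewer calls were made, and the part of counting error in the choice was not tested. CpG positions in a window are often read on the same fragments, and PCR copies are not marked in RRBS, so calls are not independent molecules.

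To read retention in a library that had not chosen the window, each replicate number was left out of the rule in turn and the windows chosen by the other libraries were read in it. Without replicate 1, 970 windows were chosen, and 25.2% of them were at 0.90 or more of control 1 in KO 1, against 10.8% of all windows methylated in the other controls. For replicate 2 the shares were 12.4% of 1526 windows against 4.54%, and for replicate 3 38.75% of 560 windows against 19.4%. In each of the 3 readings the share was higher in chosen windows, and in each most chosen windows fell under the limit. These windows were chosen by fewer libraries than the retained windows and were read as a single KO library over a single control. The reading therefore gives no verdict on single retained windows, and the part of counting error in it was not tested.

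Mean methylation of the chosen windows in the KO library left out was 74.5%, 69.9% and 77.1% for replicates 1, 2 and 3, against 68.3%, 62.9% and 68.5% in the windows not chosen. The matching control values of the chosen windows were 91.8%, 92.1% and 92.9%. Chosen windows were thus higher than the rest in every left-out KO library and, by less, in every left-out control. In KO they were lower than control by more than the full set of values had shown. Among windows with 100 or more calls in every newborn library, 28.9%, 11.7% and 40.6% of the chosen stayed at 0.90 or more, against 7.07%, 2.15% and 13.9% of all. The replicate numbers only name the libraries here, and no test was made, since windows are not replicates.

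**Figure D2:**
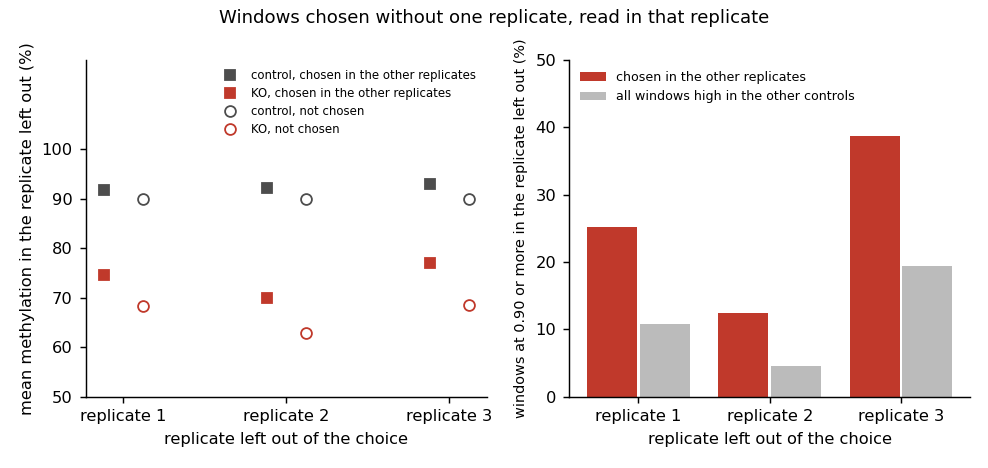
Windows chosen without 1 replicate and read in that replicate: mean methylation in percent (left; control and KO, chosen and not chosen) and the percent of windows at 0.90 or more of control (right; chosen in red, all methylated windows in grey). Chosen windows lie above the rest in each KO library and, by less, in each control, and 12.4% to 38.75% of them stay past the limit.

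No run longer than 2 adjacent retained windows was seen. Of 47 methylated windows directly beside a retained one, 4 were themselves retained, while 2.89% of all methylated windows were. They made 2 adjacent pairs: chr6:145615001-145617000 at the start of Tuba3b, and chr9:106462001-106464000 in Pcbp4 (an RNA-binding protein) and at Gpr62 (an orphan receptor). For 551 retained windows no measured methylated window lay directly beside them, so a run could not be seen there. When windows were chosen at even window numbers and their neighbours read at odd numbers, the 25 neighbours stood at 92.5% ± 0.937 in controls and 71.7% ± 3.43 in KO, and the other odd windows at 90.5% ± 0.0416 and 67.1% ± 2.998 (SD, n = 3). The neighbours' loss was smaller by 2.60 points. The control and KO libraries compared here also chose the windows, and fragments can cross a window edge. The difference is therefore a description, and no p-value is given for it. The 25 neighbours include the odd-numbered window of both adjacent pairs, and these windows met the rule themselves. The part of the 2.60 points that rests on them was not tested. With odd windows chosen and even ones read the difference was 3.74 points, and over up to 5 windows away it was 2.65. It was 9.95 points when 20 calls were required and 1.48 without KO 3.

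The windows with the firmest values were those with at least 5 positions and 100 or more calls in every newborn library, of which there were 77 among the retained. The highest of these by ratio, a window in Wdfy3, an adaptor of selective autophagy (chr5:101848001-101849000), had 78.8%, 89.8% and 84.9% in controls and 85.3%, 74.3% and 93.3% in KO. Its groups overlapped fully. A window far from coding genes, chr3:61909001-61910000, had 88.4%, 90.1% and 87.0% in controls and 90.1%, 79.5% and 94.8% in KO, again with overlap. In Pgbd5, a transposase-derived gene (chr8:124384001-124385000), the values were 93.5%, 97.9% and 97.1% in controls and 96.6%, 82.2% and 98.2% in KO, with KO 2 the lowest.

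Other windows of this group lost little in every KO library. In Dnah1, an axonemal dynein heavy chain (chr14:31277001-31278000, 6 positions), controls had 99.6%, 98.4% and 98.9% and KO libraries 94.4%, 93.6% and 94.4%. The KO values spread by less than 1 point and all lay under the controls, so a small loss was seen with a ratio of 0.951. In Sdk2, a synaptic adhesion molecule (chr11:113799001-113800000), controls had 99.6%, 98.9% and 99.2% and KO libraries 92.7%, 91.5% and 97.5%. Dsp, the desmoplakin gene of cell junctions, had 11 positions at chr13:38195001-38196000 with 96.0%, 97.4% and 94.5% in controls and 87.9%, 87.9% and 91.1% in KO. The window with the most positions, 14, lay over 1 Mb from a coding gene at chr10:15935001-15936000, with 96.2%, 98.7% and 97.0% in controls and 93.2%, 94.1% and 88.3% in KO.

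Of the 94 windows in which each KO library reached 0.90 of the control mean, 17 had 100 or more calls in every newborn library. The 3 first by ratio are given here and were chosen after the values were seen. The first lies in Csmd2, a membrane protein of neurons (chr4:128452001-128453000). It had 90.9%, 96.2% and 79.0% in controls and 93.5%, 92.2% and 92.5% in KO. The low value of control 3 sets its ratio of 1.05. A window in Zfhx3, a homeobox transcription factor (chr8:108893001-108894000), had 87.9%, 90.1% and 90.6% in controls and 89.7%, 85.9% and 90.5% in KO, so the 2 groups overlapped. At chr12:61292001-61293000, far from coding genes, controls had 89.9%, 89.6% and 90.5% and KO libraries 88.2%, 88.3% and 87.6%, a loss of about the same size in each.

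Retained windows lay more often far from genes. Of the 597, 299 (50.1%) overlapped a protein-coding gene and 144 (24.1%) lay over 100 kb from one, against 56.6% and 13.4% of the other methylated windows. Read by position, 2.57% of methylated windows inside coding genes were retained and 5.09% of those over 100 kb away. The whole class of distant windows shifted only slightly: its KO mean was 68.4% ± 2.87 with a control mean of 91.0% ± 0.114, against 66.8% ± 3.09 and 90.5% ± 0.0379 inside genes (SD, n = 3). The median of the lowest calls was 74 in distant windows and 76 inside genes. Over single autosomes the retained share ranged from 2.17% to 3.82%. These shares rest on the values that chose the windows.

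**Figure D3:**
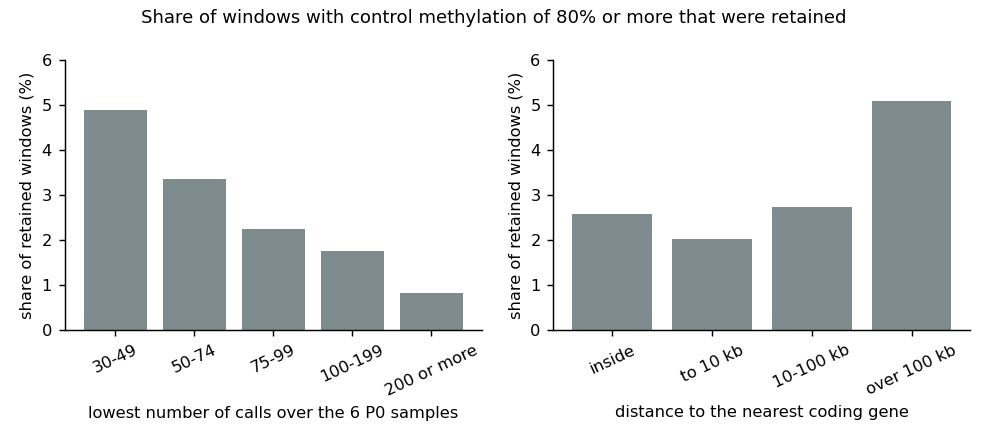
Percent of windows with a control mean of 80% or more that were retained (y axis), by the lowest number of calls over the 6 newborn libraries (left) and by distance to the nearest coding gene (right). The share falls from 4.89% to 0.820% with depth and is 5.09% over 100 kb from a coding gene.

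Of all methylated windows 2.89% were retained. By gene family, 6 of 261 methylated windows in zinc finger genes were retained, 1 of 25 in protocadherins, 2 of 34 in olfactory and vomeronasal receptors (Vmn2r92 and Vmn2r-ps17), 0 of 27 in imprinted genes and 4 of 23 in germline genes. The zinc finger windows lay in Zfp319, Zfp334, Zfp35, Zfp41, Zfp612 and Zfp64. Zfp612 was measured most deeply, with 97.7%, 96.6% and 97.7% in controls and 76.3%, 95.2% and 95.1% in KO, so KO 1 alone was far below the controls. The protocadherin window was in Pcdh15, a hair-cell adhesion molecule, with 97.6%, 94.7% and 95.6% in controls and 88.4%, 77.0% and 95.5% in KO. The imprinted windows counted here are those with a control mean of 80% or more, so half-methylated imprinting control regions are not among them.

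The 3 germline genes with retained windows had near-zero RNA in controls and high RNA in KO. The Tuba3b window with 12 positions had 96.9%, 96.4% and 99.3% in controls, 85.9%, 89.8% and 99.5% in KO and 95.7%, 96.6% and 96.2% in adults. Along its 16 measured positions in both windows, KO 1 had between 46.2% and 57.7% at the 4 positions 213 to 252 bases after the start, where KO 2 had 84.8% to 93.9% and KO 3 100%. These positions had as few as 11 calls in the shallowest library. Tuba3b RNA had 2, 1 and 0 counts in controls and 782, 997 and 947 in KO, a ratio of 1053 (95% interval 360 to 5111, counting error only; edgeR adjusted p 2.35e-05). Tuba3a is a near-identical copy and rose too, from 0.031 to 58.1 CPM, so the split of reads between both genes is uncertain.

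Dazl had 92.7%, 93.1% and 86.6% in controls, 77.8%, 78.4% and 90.04% in KO and 89.1%, 88.3% and 89.8% in adults, over 7 positions 256 to 357 bases after its start. KO 3 lay within the controls, and KO 1 and KO 2 lay under them. The ratio of the Dazl window was 0.904, just over the limit. At a minimum of 5 calls it was 0.852 and at 20 calls 0.887, so Dazl was not retained at either minimum. Its RNA had 0, 5 and 4 counts in controls and 2060, 1780 and 2532 in KO, a ratio of 821 (interval 432 to 1796; adjusted p 3.67e-05). For Mov10l1, a helicase of the piRNA pathway, the retained window lay in the gene body, 49785 to 49818 bases after the start, with 94.9%, 90.3% and 96.8% in controls and 87.8%, 76.2% and 91.1% in KO. Mov10l1 had no count in any control and 171, 182 and 196 in KO, at least 212-fold higher against a floor of 3 counts over the control group (adjusted p 0.000222). The ratio of the retained Mov10l1 window was 0.904, also just over the limit. Another window of the same gene, chr15:89021001-89022000, was not retained, with means of 91.0% in controls and 71.3% in KO.

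Of the 27 germline genes listed, 19 had a methylated window, and 14 of these 19 (Zpbp2 and Tdrd6 were not tested) were higher in KO RNA (6.36% of all 18132 genes tested were higher). Their 23 windows had a median ratio of 0.795, above the 0.741 of all methylated windows, with a lowest ratio of 0.603. Rises in RNA occurred toward both ends of that range. Sohlh2, a germ-cell transcription factor, held 82.0% in KO against 97.7% in controls over 16 positions and went from 0.00906 to 40.2 CPM. Hormad1, a meiotic chromosome protein with a window on only 3 positions, had means of 87.6% in controls and 54.5% in KO, with no control count and 2.45 CPM in KO. The list was chosen with earlier results on these libraries known and is no independent evidence of a direction.

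**Figure D4:**
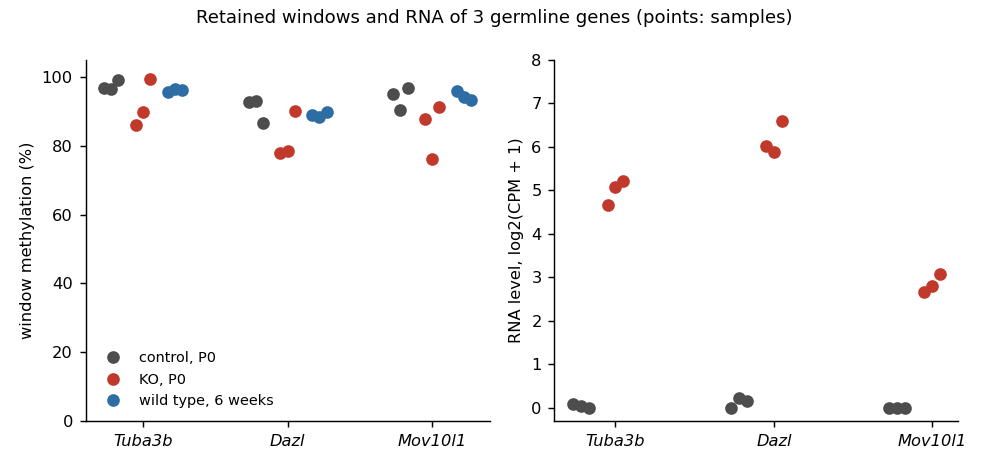
Window methylation in percent (left) and RNA as log2(CPM + 1) (right) for the retained windows of Tuba3b (the window with 12 positions), Dazl and Mov10l1; each point is 1 library, and the adults have no RNA. The windows were chosen for high methylation in KO, which was 76.2% or more in each KO library. No measured position of these windows lay inside the promoter sequence of its gene. In RNA every KO library lies above every control.

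In all, 368 annotated genes overlapped a retained window, 317 had counts and 269 were tested. Of these, 25 were higher in KO (9.29%, against 6.36% of all genes tested) and 23 lower (8.55%, against 8.23%), with a median log2 fold change of -0.07. Among 5503 genes overlapping only other methylated windows, 5.20% were higher and 9.38% lower. The counts of calls moved with single libraries. Without control 1, 15 were higher (5.54%, against 3.93% of all genes tested) and 12 lower (4.43%, against 5.42%). Without KO 1 they were 15 (5.56%, against 3.47%) and 10 (3.70%, against 3.76%). Without KO 2 they were 15 (5.54%, against 3.97%) and 13 (4.80%, against 4.16%). Without KO 3 they were 16 (5.95%, against 3.93%) and 11 (4.09%, against 4.23%). Without control 3 they were 36 (13.3%, against 13.6%) and 44 (16.3%, against 13.8%). The strand setting of the counting is not given in the sources used here, so reads of antisense partners could be included.

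Genes that were higher and held a retained window included Slc1a3, a glutamate transporter, with 10.9, 12.3 and 11.8 CPM in controls and 31.4, 35.6 and 37.6 in KO (log2 fold change 1.58, SE 0.14, adjusted p 0.000345). Sorbs2, an actin-binding adaptor, rose by 1.03 on the log2 scale (SE 0.13, adjusted p 0.00139). The testis-type genes Pdha2, with 0 control counts and 142 in KO (at least 54.9-fold higher), and Adad2, with 8 and 79 (ratio 11.4, interval 5.54 to 27.4), rose as well. The Pdha2 window had 100%, 99.3% and 100% in controls and 87.2%, 91.7% and 100% in KO, with KO 3 at control level. The intronic or exonic place of these windows was not determined.

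Lower genes included Acmsd, an enzyme of tryptophan breakdown in proximal tubules, with 32.8, 20.6 and 13.6 CPM in controls and 1.31, 2.79 and 3.04 in KO (log2 fold change -3.23, SE 0.42, adjusted p 0.00177). Its window had 89.7%, 93.7% and 91.8% in controls and 83.1%, 92.4% and 84.5% in KO. Pappa2, a protease of IGF-binding proteins, fell by 1.68 on the log2 scale (SE 0.18, adjusted p 0.000905), and Fgfr4, an FGF receptor, fell by 0.87 (SE 0.12, adjusted p 0.00248). These falls moved with the nephron markers, of which all 6 for proximal tubule were lower, and the part of that shift was not tested. Sdk2 fell by 0.41 (adjusted p 0.0419) and lost its call under several alternatives, and Wdfy3 (log2 fold change -0.16), Pgbd5 (-0.23) and Dnah1 (-0.0056) did not pass the test.

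Of the 13 genes with a retained window overlapping the promoter sequence, 9 had counts and 6 were tested: Tuba3b and Dazl were higher, and Spp2 and Oxgr1 lower, beside 6.36% and 8.23% of all genes tested. Of 99 genes tested with another methylated window and no retained one at the promoter, 18.2% were higher and 8.08% lower. Spp2, a secreted phosphoprotein, had 124, 101 and 483 CPM in controls and 13.7, 22.4 and 33.7 in KO (log2 fold change -3.35, SE 0.64, adjusted p 0.0104), with adjusted p = 0.0527 without KO 1. Its window, 313 to 415 bases after the start, had 83.2%, 82.9% and 78.6% in controls, 72.9%, 86.3% and 74.2% in KO and 54.4%, 54.8% and 41.6% in adults. Oxgr1 had 6.12, 6.21 and 23.9 CPM in controls and 1.06, 1.51 and 0.570 in KO (log2 fold change -3.52, SE 0.64, adjusted p 0.00822). Its window read 80.8%, 68.7% and 92.3% in controls and 62.0%, 59.8% and 97.0% in KO, so the mean of the KO rested on KO 3.

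Adult kidneys did not enter the choice, but the controls they are set against did, so the values are a description and no p-value is given for them. In the 532 retained windows measured in all 9 libraries, methylation was 91.3% ± 0.667 in controls and 91.7%, 91.2% and 91.4% in adults (91.5% ± 0.251). The other 18885 methylated windows went from 90.4% ± 0.0750 to 88.6% ± 0.383 (SD, n = 3). Retained windows exceeded the others by 0.414, 1.71 and 0.462 points in the 3 controls and by 2.73, 2.89 and 3.08 in the adults. The mean gap was 2.04 points wider in adults, or 3.37 without control 2. Adult methylation was 90% or more in 71.4% of retained windows and in 53.6% of the others. The control mean was already 90% or more in 375 of all 597 retained windows and in 12021 of all 20636 methylated windows. The retained share was 4.67% at a control mean of 95% or more and 2.35% to 2.80% in the classes below. The part of this starting difference in the adult shares was not tested. The labels do not say whether the 3 libraries of a group are separate animals, and p-values measure only the spread between these libraries.

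**Figure D5:**
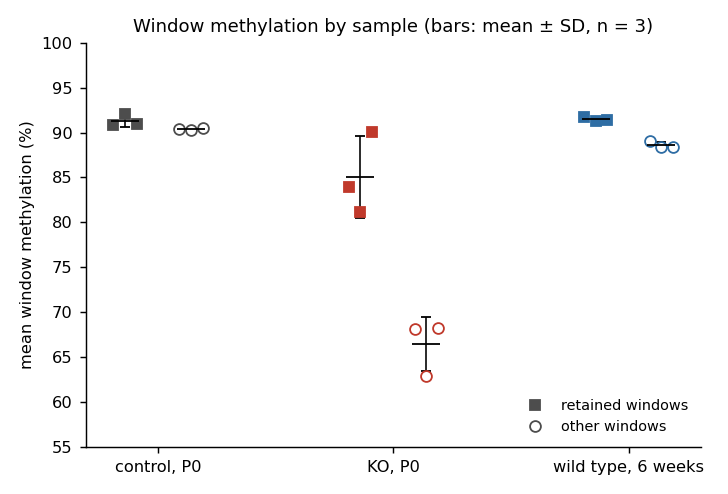
Mean methylation in percent over the 532 retained windows (filled squares) and the 18885 other methylated windows (open circles) measured in all 9 libraries; each symbol is 1 library, and bars give the mean ± SD (n = 3). The y axis starts at 55%. Adults stand at 91.5% in the retained windows and 88.6% in the others.

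Between adults and controls, a quasi-binomial model (adjusted p threshold 0.05, and 10 points or more between the means) called 6 of the 532 windows higher in adults (1.13%, against 5.56% of all 48688 windows tested) and 11 lower (2.07%, against 4.37%). Among the other methylated windows 0.291% were higher and 4.49% lower. The control values in this model are the ones that chose the windows, so nothing is read from these counts. Without control 2 the calls were 1 higher and 5 lower of 591, beside 3.16% and 2.20% of all windows tested. Without adult 1, 2 or 3 they were 1, 1 and 0 higher of 532, beside 4.34%, 3.98% and 3.51% of all. The 3 largest falls were in Tnfaip6, a hyaluronan-binding protein, from 83.6% to 33.1%, in Zfp35 on chromosome 18, from 85.6% to 39.9%, and in Jph2, a junctional membrane protein of muscle, from 88.2% to 54.8%. Windows retained in the KO thus include some that were far lower in adults.

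The Tnfaip6 window rested on 3 positions and at least 43 calls, with 78.3%, 64.6% and 95.5% in the newborn KO and 34.2%, 32.7% and 32.4% in adults. Of the 13 genes with a retained window overlapping the promoter sequence, 3 had that window among the 11 lower ones. The share called lower was 2.07% of retained and 4.49% of other methylated windows, and nothing is read from the count of 3. Spp2 went from 81.6% to 50.3%, at positions 313 to 415 bases after the start. Gm33326 went from 82.3% to 57.5%, at positions -1055 to -787 in bases from the start. Gm31278 went from 82.9% to 57.2%, at positions -418 to -196, of which 3 of 7 lay inside the promoter sequence. In Gm31278, whose sequence is printed above, newborn values were 78.8%, 84.1% and 85.7% in controls and 78.2%, 76.4% and 80.9% in KO, and adults had 61.4%, 55.5% and 54.8%. Gm33326 was named after its values were seen.

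The 3 largest rises were at Cbx8, a Polycomb chromodomain gene, from 81.7% to 98.1%, at chr5:62977001-62978000, from 82.6% to 98.1%, and in Fkbp9, a prolyl isomerase of the secretory pathway, from 81.8% to 96.9%. Each rested on 3 to 5 positions and had 1 control above the other two. All 3 lost the call in several of the sets with 1 library left out.

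The window of Dnmt1 itself was also among the 597, and it is named after its values were seen. At chr9:20958001-20959000, 992 to 1109 bases after the start of the gene, 5 positions with 131 or more calls had 80.9%, 81.4% and 85.1% in controls, 75.7%, 67.4% and 87.8% in KO and 81.8%, 80.2% and 78.9% in adults. KO 3 was the highest newborn library there and KO 2 the lowest.

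Of 33 listed genes of DNA methylation and of heterochromatin (compact, silent chromatin), 31 were tested, 2 were higher and 1 (Dnmt1) was lower. Among all genes tested, 6.36% were higher and 8.23% lower. The median log2 fold change was 0.12 in the list, beside -0.00074 over all genes tested. Suv39h2, a histone H3 lysine 9 methyltransferase, had 11.3, 13.1 and 8.81 CPM in controls and 36.1, 23.7 and 26.0 in KO (log2 fold change 1.37, SE 0.22, adjusted p 0.00458). Zfp445, an imprint-protecting zinc finger, had 35.3, 42.6 and 52.6 CPM in controls and 72.5, 73.7 and 60.1 in KO (log2 fold change 0.66, SE 0.16, adjusted p 0.0309). In both genes the groups did not overlap. Uhrf1 (log2 fold change 0.31, adjusted p 0.0807), Trim28 (0.049, 0.885), Setdb1 (0.12, 0.675), Dnmt3a (0.059, 0.840) and Dnmt3b (-0.23, 0.320) did not pass the test.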

How the data were processed

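RRBS was read from 9 kidney libraries and RNA from 6. The deposited RRBS files give, for each position, a methylation percent and 2 counts, of methylated and of unmethylated calls. The deposited RNA files give a raw count per gene. The submitters' processing notes name Trim Galore, Bismark, STAR 2.4.1d and HTSeq 0.6.1 and build mm10 (GRCm38). Unassigned reads (22.9% to 35.8% of reads) stayed out of library sizes.

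The percent of a window was recomputed as 100 times methylated calls over all calls at its positions with 10 or more calls. As a check of the build, 99.6% of 27755 positions inside the RefSeq promoter sequences lay at a CG. Promoters of chromosome 18 are not analysed here. Genes were tested with edgeR 4.0.16 (quasi-likelihood, TMM, filterByExpr, Benjamini-Hochberg, threshold 0.05) in R 4.3.3, and windows between adults and controls with a quasi-binomial model in Python 3.11.15 (numpy 2.4.6, scipy 1.17.1), its dispersion moderated toward a common prior and not under 1. Both were tested on simulated data. Standard errors of log2 fold changes come from the quasi-likelihood F statistic.

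Named windows were the 12 highest ratios with 5 or more positions and 100 or more calls in every newborn library, the 6 with the most positions, runs of adjacent windows, the 3 largest rises and falls in adults, the nearest to the limit and the deepest of each gene family; named genes were Dnmt1, the 10 smallest p among overlapping genes and the genes of the first set. Not every named item is described. The members and lists were chosen with earlier results of these data known. Alternatives were other minimums of calls, positions, control mean and ratio, shifted windows, no overdispersion, a replicate block, DESeq2 1.42.0, other count filters and each library left out.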

Additional observations from a re-analysis of the deposited data

How the results depend on the processing

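The number of retained windows, 597, followed the rule closely: 1286 at 5 calls, 158 at 20 calls, 204 at 5 positions, 375 with a control mean of 90%, 2000 at a ratio of 0.85 and 143 at 0.95, and from 563 to 1506 with 1 library left out. It was 630 when every position weighed the same, 613 with windows shifted by 500 bases and 795 with a control mean of 70%. Similar totals can hold different windows. Of the 597, 449 were among the 1286 at 5 calls, 120 among the 158 at 20 calls and 318 among the 563 without KO 3. Windows called higher and lower in adults, 6 and 11, became 12 and 24 with no overdispersion, 1 and 5 at 20 calls, 0 and 5 with a difference of 25 points, and 0 to 7 and 5 to 11 with 1 library left out. The shares of all windows called higher and lower moved too. They were 8.77% and 7.35% with no overdispersion, 6.04% and 4.70% at 20 calls and 1.70% and 1.43% at 25 points. With 1 library left out they were 3.16% to 4.42% and 2.20% to 3.51%. Genes at retained windows called higher and lower, 25 and 23, ranged from 15 to 36 and from 10 to 44 with 1 library left out, and DESeq2 called 35 and 28. The log2 fold change of Dnah1, -0.0056, turned to 0.0060 when each library needed 10 counts, 0.0033 with DESeq2, 0.069 without control 2, 0.015 without control 3 and 0.023 without KO 3 (lowest -0.11 without control 1), and that of Pgbd5 to 0.30 without control 3 (lowest -0.47 without control 1); neither gene passed the test in any of these. The call of Sdk2 was lost with no filter on low counts (adjusted p 0.0666) and with that minimum of counts (adjusted p 0.0506). The cause of these changes was not tested. The shallowest library had a median of 60 calls in the retained windows, which limits the precision of single windows.

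Deviations of same-numbered control and KO libraries correlated at -0.015, -0.0025 and 0.0012 in RRBS and at -0.236, -0.0653 and -0.124 in RNA. Those of different numbers correlated at -0.0136 to 0.0193 in RRBS and at -0.00727 to 0.145 in RNA. No pairing by number was seen, and these correlations cannot exclude one. With a replicate block the calls in adults were 4 higher and 8 lower (3.28% and 2.35% of all windows tested). Genes at retained windows were then 17 higher and 13 lower (6.32% and 4.83%, against 4.40% and 5.54% of all genes tested). The log2 fold change of Dnah1 became 0.00055. The neighbour difference (2.60 points) and the adult difference (2.04 points) are given with no p, since libraries compared in them chose the windows.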
